A study of Mus musculus with 10 samples.

Results

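The genes described here encode the subunits of the proteasome together with its activators, its inhibitor and its assembly factors, and were taken as every gene whose symbol has the form Psma, Psmb, Psmc, Psmd, Psme, Psmf or Psmg followed by a number. This gave 49 of the 23337 genes in the table. Right atria of 10 mice were profiled by RNA-seq, 4 labelled control and 6 labelled Tbx5 mutant, 1 mouse per library. Tbx5, a transcription factor of the atrium, loses its exon 3 in the mutant mice once tamoxifen activates Cre, which is expressed from R26 and so is not limited to 1 cell type. The shared protocol gives 0.167 mg tamoxifen per day by intraperitoneal injection for 3 days and death 1 week later. The strain is labelled "mix", and the age is given as 8 to 10 weeks in the sample labels and as 6 to 8 weeks in the extraction text. The labels of the control mice say only "Control" and do not say whether they carried the Cre; the tamoxifen text is the same for both groups.

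Facts of the libraries bear on every direction given here. The libraries held 5703775 to 7095141 counts. Tbx5 itself was counted over the whole gene, so that the deleted exon cannot be seen apart. It was at 184 to 224 CPM (counts relative to the TMM-scaled library size) in the mice labelled control and at 275 to 475 CPM in those labelled mutant. A higher count of the whole gene neither shows nor excludes the deletion, so the mice are called labelled control and labelled mutant throughout. The sex labels of the 4 control mice are opposite to their Xist and Ddx3y reads. The library labelled mutant M3 had 38.9% of its counts on the ribosomal RNA gene Rn45s, against 0.268% to 1.49% in the others. The atrial genes Nppa, Myl7, Myl4 and Sln were present in every mouse, the ventricular gene Irx4 had at most 0.158 CPM, and the ventricular gene Myl3 was at 33.3 to 53.6 CPM in the labelled control mice and at 585 to 826 CPM in the labelled mutant mice.

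The proteasome is the protease that degrades proteins tagged with ubiquitin in the cytosol and nucleus. Its 20S core is a barrel of outer alpha rings and inner beta rings, in which the products of Psmb6, Psmb7 and Psmb5 carry the caspase-like, trypsin-like and chymotrypsin-like activities. The 19S cap, built of a base with ATPases that unfold the substrate and of a lid that removes ubiquitin, binds the ends of the core. Under interferon, and constantly in immune cells, Psmb9, Psmb10 and Psmb8 replace the catalytic subunits and form the immunoproteasome, which shapes the peptides shown on MHC class I. Cardiac muscle depends on the proteasome for turnover of its contractile proteins.

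Of the 49 genes, 47 passed the filter on low counts and were tested. In the comparison of mice labelled mutant with mice labelled control, 27 rose, 0 fell and 20 were not called, at an adjusted p under 0.05 (edgeR quasi-likelihood test over 13084 genes). Over all genes tested, 16.3% were called higher and 15% lower. The log2 fold change was positive for 44 of the 47 genes, with a median of 0.35, a fold of 1.28, beside a median of -0.005 for all genes tested. Every labelled mutant mouse lay above every labelled control mouse for 19 of the 47, against 11.7% of all genes, and below for 0, against 11%. The rises were small: 8 of the 27 exceeded a fold of 1.5, a class that held 8.54% of all genes tested. Summed over the 49 genes, the level was 2575, 2666, 2783 and 2814 CPM in labelled control M1, M2, F1 and F2, respectively, and 3480, 3394, 3415, 3625, 3556 and 3554 CPM in the labelled mutant mice F1, F2, F3, M1, M2 and M3, so that the groups did not overlap and differed by a ratio of 1.29.

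**Figure D1:**
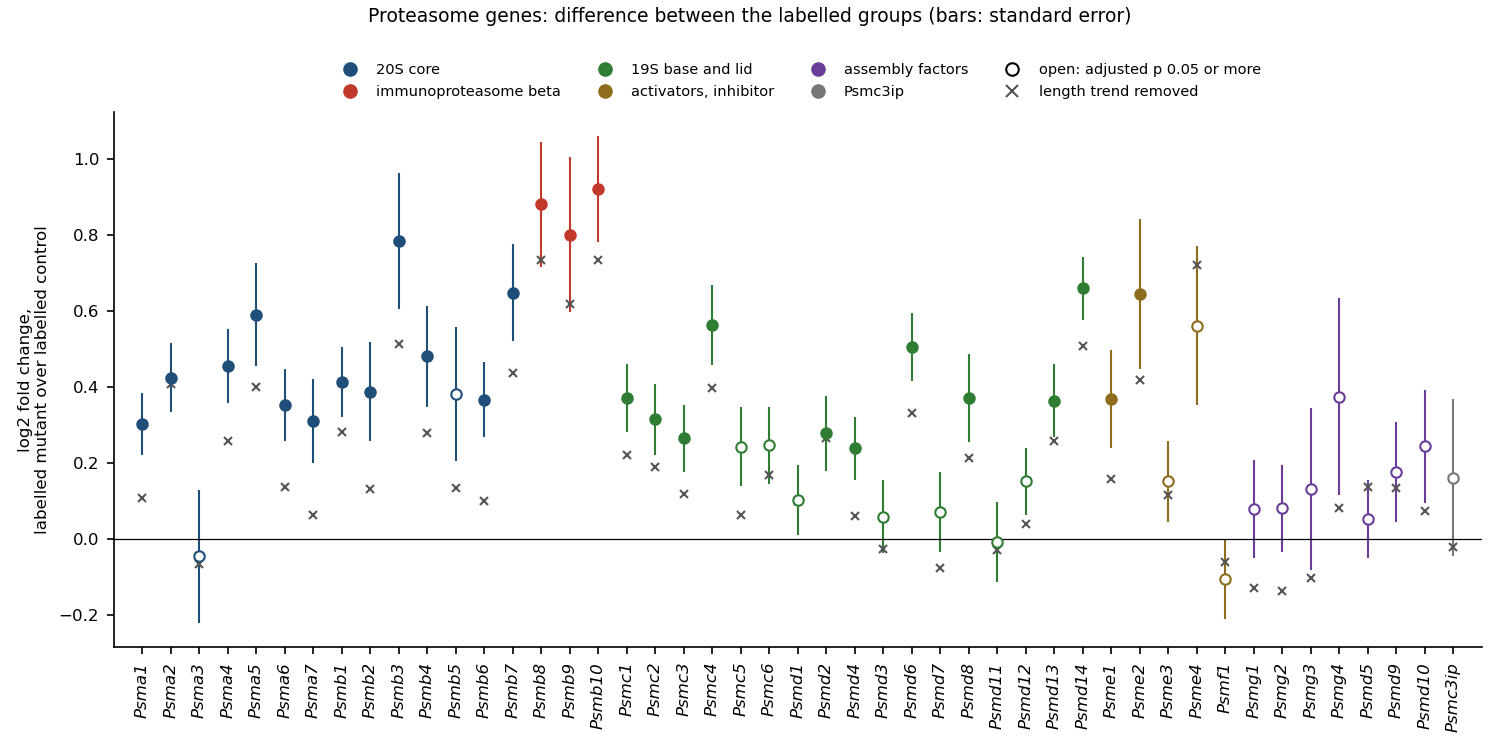
Log2 fold change of labelled mutant over labelled control for the 47 tested genes, in the order of their place in the complex; bars are the standard error, filled points were called higher, open points were not called, and crosses give the value after the trend on transcript length was removed. Among the points the immunoproteasome subunits lie highest, between 0.80 and 0.92, while the cross of Psme4 lies above that of Psmb9. The 7 assembly factors are all open.

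A property of the libraries ran alongside these rises. Across 11868 genes the log2 fold change fell with the length of the transcript (Spearman -0.311 with the principal transcript), so that short transcripts as a class were higher in the labelled mutant mice, and the median principal transcript was 1430 bases for the 47 proteasome genes against 3086 bases for all of these genes. With this trend removed from each library, 16 genes were called higher and 0 lower, 15 of them among the 27, and the background of higher calls was 15.4%. The median log2 fold change over the 47 genes was then 0.14. Without the library labelled mutant M3, 21 were called higher beside a background of 14.5%: 10 of 14 genes of the core, 3 of 3 of the immunoproteasome, 6 of 17 of the 19S cap and 2 of 5 activators and inhibitor. Without the labelled control M1 the count was 18.

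The same trend can be followed mouse by mouse. The rank correlation of a gene's expression, relative to its mean over the 10 mice, with transcript length was 0.33, 0.27, 0.25 and 0.12 in the labelled control mice M1, M2, F1 and F2. In the labelled mutant mice it was 0.05 in M1, 0.01 in F1, -0.16 in F3, -0.19 in F2, -0.35 in M2 and -0.38 in M3. Summed CPM of the 14 genes of the 20S core was 966 in M1, 992 in F1, 1017 in F3, 1048 in F2, 1161 in M2 and 1250.0 in M3, the same order reversed, and 758, 807, 773 and 867 in the labelled control mice M1, M2, F1 and F2. Mice with fewer counts on long transcripts thus had more counts on the core genes, within the labelled mutant group as well as between the groups.

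**Figure D2:**
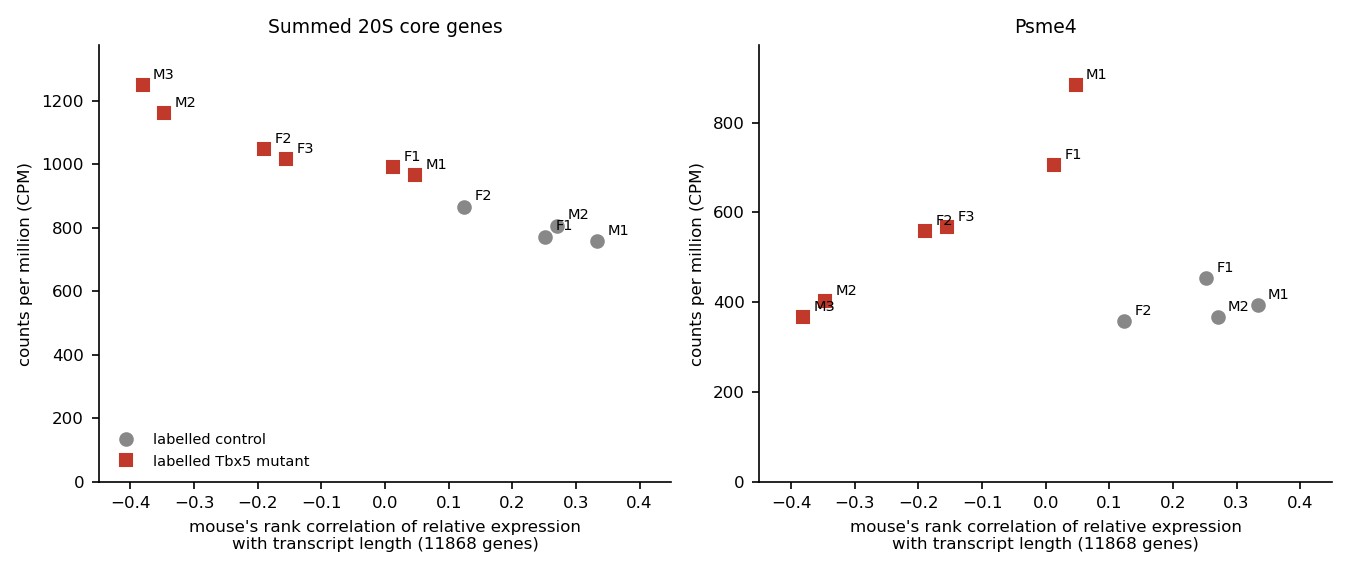
Summed CPM of the 20S core genes (left) and CPM of Psme4 (right) against each mouse's rank correlation of relative expression with transcript length over 11868 genes; circles are labelled control and squares labelled mutant mice. The core sum declines from 1250.0 CPM at -0.38 to 758 CPM at 0.33, while Psme4 in the labelled mutant mice climbs from 366 CPM at -0.38 to 884 CPM at 0.05.

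In the 20S core, 12 of the 14 genes rose, 6 of 7 in the alpha ring, which gates entry to the barrel, and 6 of 7 in the beta ring. The summed level went from 801 ± 48.7 CPM (SD, n = 4) to 1072 ± 111 CPM (n = 6), and every labelled mutant mouse was above every labelled control mouse. With the length trend removed, 6 of the 14 were called, Psma2 and Psma5 of the alpha ring and Psmb1, Psmb3, Psmb4 and Psmb7 of the beta ring, and the median log2 fold change went from 0.40 to 0.20.

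Psma4 had the smallest adjusted p of the alpha ring. It was at 32, 32.4, 37.3 and 31.8 CPM in labelled control M1, M2, F1 and F2, respectively, and at 50.5, 39.6, 42.9, 50.4, 44.7 and 47.1 CPM in the labelled mutant mice F1, F2, F3, M1, M2 and M3. All 6 labelled mutant mice lay above all 4 labelled control mice. On the log2 scale the difference was 0.46 ± 0.10 (SE, adjusted p = 0.00325). After removal of the length trend it was 0.26 (adjusted p = 0.0997). Psma5 had the largest log2 fold change of the ring, 0.59 ± 0.14 (adjusted p = 0.00506), with 9.86 to 11.5 CPM in the labelled control and 13.4 to 20.4 CPM in the labelled mutant mice, and it stayed called with the length trend removed (0.40, adjusted p = 0.0208). Psma3, which builds the same ring, gave a log2 fold change of -0.04 ± 0.18 (adjusted p = 0.871), with 5.46 to 6.29 CPM and 4.18 to 7.28 CPM. The 4 other subunits of the ring, Psma1, Psma2, Psma6 and Psma7, rose by 0.30, 0.42, 0.35 and 0.31. Psma1 was at 95.0 to 99.9 CPM in the labelled control and 107 to 131 CPM in the labelled mutant mice. Psma7 alone of these 4 overlapped (84.3 to 108 CPM against 106 to 153 CPM, adjusted p = 0.0461), and of the 4 only Psma2 was called with the length trend removed (0.41, adjusted p = 0.00373).

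Psmb3, a structural subunit of the beta ring without catalytic activity, showed the largest rise outside the immunoproteasome. Its level was 9.14, 13.2, 12.1 and 15.0 CPM in the labelled control mice and 17.0, 22.8, 19.1, 16.1, 26.2 and 27.5 CPM in the labelled mutant mice, in the order of mice used for Psma4. The groups did not overlap, and the highest values were those of M2 and M3. Its fitted log2 fold change was 0.78 ± 0.18 (adjusted p = 0.00497), and 0.51 (adjusted p = 0.00993) with the length trend removed. The other structural subunits Psmb1, Psmb2 and Psmb4 rose by 0.41, 0.39 and 0.48. Psmb1 was at 81.2 to 88.3 CPM and 98.6 to 129 CPM, without overlap, and Psmb4 at 91.2 to 128 CPM and 116 to 181 CPM, where labelled control F2 lay above labelled mutant F1 and M1. Psmb2 overlapped in the labelled mutant F1 (50.0 to 66.5 CPM against 59.9 to 95.8 CPM, adjusted p = 0.0353).

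Of the catalytic subunits, Psmb7 rose most. It was at 70.7, 60.6, 70.7 and 79.7 CPM in the labelled control mice and at 92.6, 99.9, 102, 99.8, 133 and 137 CPM in the labelled mutant mice. Here too the groups were apart, with M2 and M3 again highest. The log2 fold change was 0.65 ± 0.13 (adjusted p = 0.00182), and 0.44 (adjusted p = 0.00459) with the length trend removed.

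Psmb6 was at 87.4, 87.5, 85.0 and 101 CPM in the labelled control mice and at 109, 115, 108, 104, 121 and 142 CPM in the labelled mutant mice. The lowest labelled mutant value lay just above the highest labelled control value. Its log2 fold change of 0.37 ± 0.10 passed the test (adjusted p = 0.0124) but was 0.10 (adjusted p = 0.306) with the length trend removed.

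Psmb5, which carries the chymotrypsin-like activity, was not called. It was at 11.3, 13.2, 12.2 and 14.5 CPM in the labelled control mice and at 16.9, 16.7, 17.4, 10.1, 16.7 and 23.4 CPM in the labelled mutant mice. M1 fell below all labelled control mice, and the other 5 labelled mutant mice lay above them. On the log2 scale the difference was 0.38 ± 0.18 (adjusted p = 0.112).

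**Figure D3:**
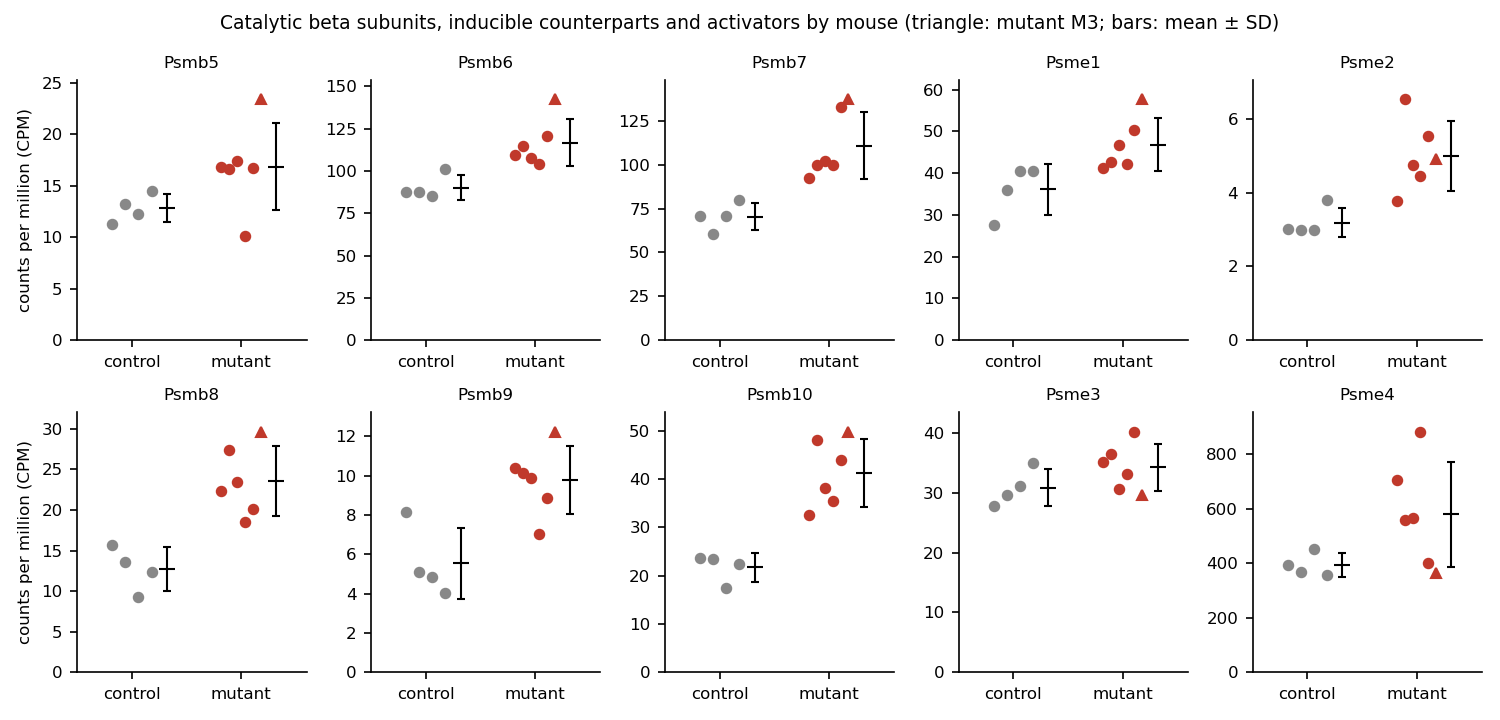
CPM of the constitutive catalytic subunits (Psmb5, Psmb6, Psmb7), their inducible counterparts (Psmb8, Psmb9, Psmb10) and the activators (Psme1 to Psme4) in each mouse; points are mice, the triangle is the library labelled mutant M3, and bars are the mean ± SD of 4 labelled control and 6 labelled mutant mice. Psmb6, Psmb7, Psmb8, Psmb10 and Psme1 separate the groups, Psmb9 overlaps in 1 mouse of each, and Psme4 reaches 884 CPM in a labelled mutant mouse.

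The 3 inducible subunits of the immunoproteasome had the largest rises of all 47 genes before removal of the length trend, Psmb9 (0.80) only just above Psmb3 (0.78). Their summed level was 40.0 ± 6.73 CPM (SD, n = 4) in the labelled control and 74.7 ± 11.8 CPM (n = 6) in the labelled mutant mice, a ratio of 1.87, against 1.34 for the 20S core and 1.22 for the 19S cap. All 3 were called with the length trend removed as well, where Psme4 (0.72) lay above Psmb9 (0.62). Taken as a percentage of the 20S core sum in the same mouse, they made up 6.28%, 5.23%, 4.08% and 4.46% in labelled control M1, M2, F1 and F2, respectively, and 6.59%, 8.18%, 7.02%, 6.32%, 6.28% and 7.34% in the labelled mutant mice F1, F2, F3, M1, M2 and M3. The lowest labelled mutant mouse and the highest labelled control mouse were level on this measure.

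Psmb10 (chr8:105935735-105938444, minus strand, GRCm38) was at 23.7, 23.5, 17.4 and 22.3 CPM in the labelled control mice and at 32.5, 48.1, 38.0, 35.5, 44.0 and 49.8 CPM in the labelled mutant mice. All labelled mutant mice were above all labelled control mice. Its fitted log2 fold change was 0.92 ± 0.14 (adjusted p = 0.000298), and 0.73 (adjusted p = 0.000634) with the length trend removed.

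Psmb8 (chr17:34197721-34201454, plus strand) was at 15.7, 13.6, 9.25 and 12.3 CPM and at 22.4, 27.5, 23.4, 18.5, 20.1 and 29.7 CPM in the same order. The groups did not overlap. Its log2 fold change was 0.88 ± 0.16 (adjusted p = 0.00128), and 0.74 (adjusted p = 0.00373) with the length trend removed.

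Psmb9 (chr17:34181987-34187764, minus strand) was the lowest of the 3 per length, at 8.14, 5.13, 4.86 and 4.06 CPM and at 10.4, 10.1, 9.90, 7.03, 8.88 and 12.3 CPM. The labelled mutant M1 lay below the labelled control M1, the only overlap. The log2 fold change was 0.80 ± 0.20 (adjusted p = 0.00936), and 0.62 (adjusted p = 0.038) with the length trend removed.

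Each inducible subunit takes the place of a constitutive one, so their levels per kilobase of transcript were compared within each pair. Psmb8 made up 35.3% ± 6.13 of the Psmb8 and Psmb5 pair in the labelled control mice (SD, n = 4) and 44.0% ± 4.07 in the labelled mutant mice (n = 6). For Psmb10 against Psmb7 the shares were 21.5% ± 3.37 and 24.9% ± 2.55. For Psmb9 against Psmb6 they were 3.53% ± 1.21 and 4.70% ± 0.583. The groups overlapped for each pair, with 2, 1 and 1 labelled mutant mice above the highest labelled control mouse, so the constitutive forms remained the larger part in nearly all mice. In the labelled mutant M1, where Psmb5 was lowest, Psmb8 reached 50.3%.

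The sequences upstream of these genes are shown because the inducible and the constitutive subunits differ in how they are controlled. Each window runs from 250 bases before to 50 bases after the RefSeq start site (GRCm38.p6), 5′ to 3′ on the strand of the gene. Capitals mark matches on either strand to the letters TGACNNNGC (antioxidant response element), TTCNNNGAA (gamma-activated site), GAAANNGAA (core of the interferon-stimulated response element), CCAAT or AGGTGT (T-box site).
Psmb8, chr17:34197945-34198244, plus strand: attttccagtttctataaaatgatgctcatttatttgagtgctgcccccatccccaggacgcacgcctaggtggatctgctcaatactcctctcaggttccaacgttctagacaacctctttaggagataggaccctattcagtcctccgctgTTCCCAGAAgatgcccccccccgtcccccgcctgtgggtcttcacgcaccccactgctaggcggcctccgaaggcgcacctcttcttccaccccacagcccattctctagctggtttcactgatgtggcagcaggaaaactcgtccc
Psmb9, chr17:34187281-34187580, minus strand: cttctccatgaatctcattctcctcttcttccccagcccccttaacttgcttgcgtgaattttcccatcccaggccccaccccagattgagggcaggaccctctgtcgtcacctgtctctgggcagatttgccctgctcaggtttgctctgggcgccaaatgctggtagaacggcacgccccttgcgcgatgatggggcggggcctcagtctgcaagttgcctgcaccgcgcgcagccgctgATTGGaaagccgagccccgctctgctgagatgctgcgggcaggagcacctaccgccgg
Psmb10, chr8:105938343-105938642, minus strand: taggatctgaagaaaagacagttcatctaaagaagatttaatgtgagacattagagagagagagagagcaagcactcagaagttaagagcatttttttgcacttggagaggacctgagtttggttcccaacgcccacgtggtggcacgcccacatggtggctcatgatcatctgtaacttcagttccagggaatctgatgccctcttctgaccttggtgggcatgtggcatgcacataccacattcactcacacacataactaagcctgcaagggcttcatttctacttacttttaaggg
Psmb5, chr14:54617946-54618245, minus strand: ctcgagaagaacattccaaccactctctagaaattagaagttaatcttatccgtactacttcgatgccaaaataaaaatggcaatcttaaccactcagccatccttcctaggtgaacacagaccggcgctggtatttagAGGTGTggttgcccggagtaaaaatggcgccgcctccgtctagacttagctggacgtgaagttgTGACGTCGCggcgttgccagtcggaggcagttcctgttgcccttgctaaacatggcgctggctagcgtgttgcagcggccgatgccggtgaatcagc
Psmb6, chr11:70525107-70525406, plus strand: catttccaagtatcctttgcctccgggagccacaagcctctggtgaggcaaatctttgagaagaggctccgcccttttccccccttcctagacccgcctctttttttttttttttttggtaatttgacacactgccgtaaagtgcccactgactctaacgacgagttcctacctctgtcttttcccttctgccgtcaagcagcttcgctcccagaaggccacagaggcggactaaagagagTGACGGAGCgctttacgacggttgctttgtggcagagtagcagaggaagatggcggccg

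The Psmb8 window held the letters of a gamma-activated site, TTCCCAGAA, starting 97 bases before the RefSeq start site, within the GENCODE gene. Psmb5 and Psmb6 each held an antioxidant response element match, TGACGTCGC starting 47 bases and TGACGGAGC starting 9 bases before the start, and Psmb5 also held the T-box site. Psmb9 held an inverted CCAAT, and the Psmb10 window held none of these letters. Windows were found for 41 of the 49 genes, and Psmb7, the constitutive partner of Psmb10, had none. The antioxidant response element matched in 6 of the 41 (14.6%), against 14.0% of 27025 genes with a window, and the gamma-activated site in 3 (7.32%, against 9.55%). The interferon-stimulated core matched in 7 (17.1%, against 9.76%), CCAAT in 15 (36.6%, against 41.1%) and the T-box site in 4 (9.76%, against 15.7%). These matches are a description of the letters and no sign of binding.

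The Psmb9 window overlaps that of Tap1, which encodes a subunit of the transporter that carries proteasome products to MHC class I. Their RefSeq start sites lie 226 bases apart on opposite strands. Tap1 was at 9.88 to 13.9 CPM in the labelled control and 16.6 to 29.1 CPM in the labelled mutant mice, with a log2 fold change of 0.85 ± 0.18 (adjusted p = 0.00281). A similar pair was Psma2 and Mrpl32, a gene of the mitochondrial ribosome, 205 bases apart, where Psma2 rose by 0.42 ± 0.09 (adjusted p = 0.00337) and Mrpl32 by 0.46 (adjusted p = 0.00994). In GENCODE M21 the Psmb9 and Tap1 annotations overlap at these ends, and without strand in the counting the reads from there cannot be told apart. The head-to-head neighbours of Psma7, Psmd13, Psmc5 and Psmd10 were not called.

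Genes that act with the immunoproteasome moved in the same comparison. Of 27 genes of antigen presentation and interferon response, 17 rose and 0 fell, with a median log2 fold change of 0.62, and 13 were called higher with the length trend removed. Over all genes tested 16.3% were called higher and 15% lower, and 15.4% were called higher with the length trend removed. Of the 5 MHC class I genes 4 rose, among them B2m, the light chain (1.18 ± 0.13, adjusted p = 2.09e-05), and H2-K1 (1.03 ± 0.18, adjusted p = 0.000935). All 9 interferon targets rose, from Ifi35 at 0.39 to Isg15 at 1.27. With the length trend removed 5 of the 9 were called, and neither Ifi35 (0.22, adjusted p = 0.201) nor Isg15 (1.01, adjusted p = 0.0757) was among them. Nlrc5, the transactivator of class I genes and of the immunoproteasome, rose by 1.25 ± 0.27 (adjusted p = 0.00354), while Irf1 gave 0.20 (adjusted p = 0.456) and Stat2 0.14 (adjusted p = 0.450). Of the 8 peptide loading genes only Tap1 was called, a count near the share over all genes. It was joined by Erap1 (0.34, adjusted p = 0.0245) with the length trend removed.

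Leukocyte genes, whose cells contain the immunoproteasome constantly, moved with this result. Of the 12 markers, 8 were tested and 7 rose, among them Ptprc, the pan-leukocyte CD45 (0.84 ± 0.15, adjusted p = 0.000788), and the macrophage genes Emr1 (0.86 ± 0.11, adjusted p = 8.92e-05) and C1qb (0.96 ± 0.15, adjusted p = 3.00e-04). Over all genes tested 16.3% were called higher and 15% lower. With the length trend removed, 6 of the 7 tested leukocyte markers with a transcript length were called higher, beside 15.4% of all genes. The 12 markers summed to 452 to 700.2 CPM in the labelled control and 759 to 1108 CPM in the labelled mutant mice. The lymphocyte markers Cd3e, Cd3g and Cd79a were all under 1 CPM in every mouse. The part of leukocytes in the rise of Psmb8, Psmb9 and Psmb10 was not tested, and in bulk tissue more cells of a type and more RNA per cell cannot be told apart. All 4 proliferation markers rose as well (summed 10.6 to 25.0 CPM against 67.3 to 234 CPM), the 4 endothelial markers were not called, and of 4 fibroblast markers Col1a1 rose and Pdgfra fell. Of 7 atrial cardiomyocyte markers 2 rose and 4 fell, Myl7 by 2.73 on the log2 scale. The 4 adipocyte markers did not pass the filter on low counts. They summed to at most 4.14 CPM in the labelled control and 20.8 CPM in the labelled mutant mice. Labelled mutant M2 had the highest Adipoq, Cidec and Plin1, at 9.03, 6.84 and 4.51 CPM, and any bearing on its other values was not tested.

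In the 19S cap, 10 of 17 genes rose, with a median log2 fold change of 0.27. With the length trend removed this median was 0.17, beside 0.20 for the core, and the difference between cap and core was not tested. Without the labelled control M1, and likewise with a replicate block, 5 of the 17 were called, and Psmc2, Psmc3, Psmd2, Psmd4 and Psmd8 were not called in either fit. The summed level went from 1280 ± 64.0 CPM (SD, n = 4) to 1559 ± 74.6 CPM (n = 6), without overlap. Relative to the 20S core sum of the same mouse it was 154% to 172% in the labelled control and 129% to 157% in the labelled mutant mice. The 6 genes called with the length trend removed were Psmc1, Psmc4, Psmd2, Psmd6, Psmd13 and Psmd14.

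Of the 6 ATPases of the base, which form the ring that unfolds and threads substrates, 4 rose and Psmc5 and Psmc6 did not pass the test. Psmc4 led with 55.6, 67.3, 64.9 and 74.3 CPM in the labelled control mice and 88.5, 106, 97, 80.6, 108 and 102 CPM in the labelled mutant mice. All labelled mutant mice were above all labelled control mice. On the log2 scale the difference was 0.56 ± 0.11 (adjusted p = 0.00139), and 0.40 (adjusted p = 0.00344) with the length trend removed. Psmc1, Psmc2 and Psmc3 rose by 0.37, 0.32 and 0.27, also without overlap, and of these Psmc1 was called with the length trend removed (0.22, adjusted p = 0.0366). Psmc5 gave 0.24 (adjusted p = 0.0868) and Psmc6 0.25 (adjusted p = 0.0768). Among the 3 other base subunits, Psmd2, a scaffold, and Psmd4, a ubiquitin receptor, rose by 0.28 (adjusted p = 0.0431) and 0.24 (adjusted p = 0.0415), and Psmd1 gave 0.10 (adjusted p = 0.420).

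The lid was split, with 4 of 8 genes higher. Psmd14, the metalloprotease that cuts ubiquitin chains from the substrate, had the smallest adjusted p of all 47 genes. It was at 38.6, 41.5, 45.9 and 47.1 CPM in the labelled control mice and at 72.2, 67.0, 68.9, 65.3, 68.4 and 68.9 CPM in the labelled mutant mice. The labelled mutant mice lay within a narrow range far above the controls, with no lead of M2 or M3. Its fitted log2 fold change was 0.66 ± 0.08 (adjusted p = 6.77e-05), and 0.51 (adjusted p = 0.000334) with the length trend removed. Psmd6 rose by 0.51 ± 0.09 (adjusted p = 0.000959), Psmd8 by 0.37 (adjusted p = 0.0257) and Psmd13 by 0.37 (adjusted p = 0.0108). The other lid subunits, Psmd3, Psmd11, Psmd12 and Psmd7, the inactive partner of Psmd14, gave log2 fold changes from -0.01 to 0.15 and none was called.

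**Figure D4:**
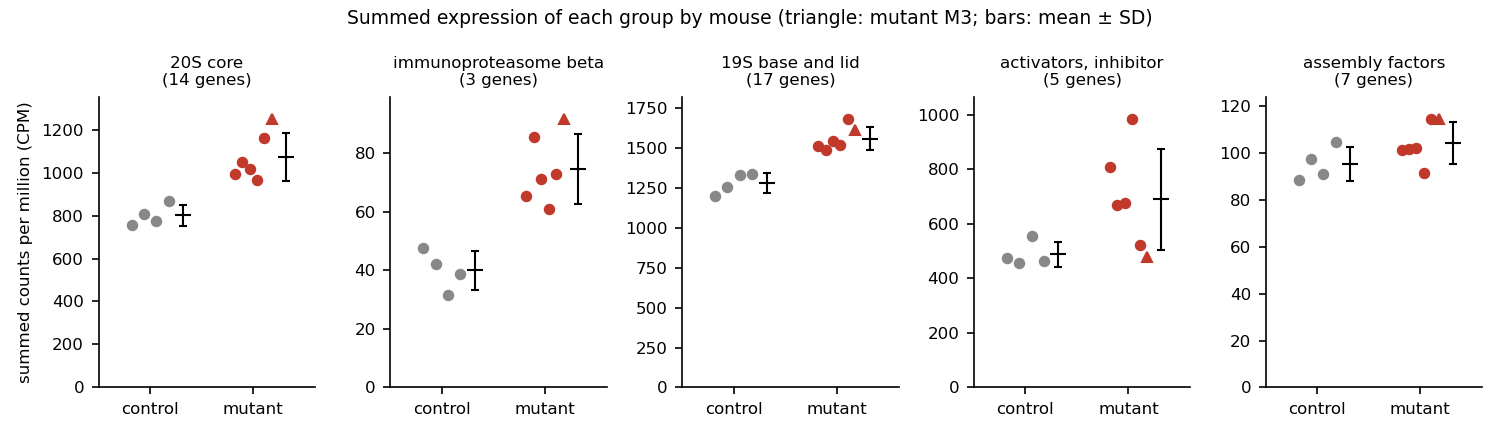
Summed CPM of the genes of each group in each mouse; points are mice, the triangle is the library labelled mutant M3, and bars are the mean ± SD of 4 labelled control and 6 labelled mutant mice. The 20S core, immunoproteasome and 19S panels separate the groups, while the activator and assembly factor panels overlap. Most of the activator and inhibitor sum is Psme4, with means of 393 of 488 CPM in labelled control and 580 of 690 CPM in labelled mutant mice.

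The activators open the core in place of the 19S cap. Psme1 and Psme2, which form the interferon-inducible PA28 alpha-beta ring, both rose. Psme1 was at 27.6, 35.9, 40.6 and 40.5 CPM in the labelled control mice and at 41.3, 42.6, 46.8, 42.2, 50.4 and 57.7 CPM in the labelled mutant mice, apart by less than 1 CPM at the border. Its log2 fold change was 0.37 ± 0.13 (adjusted p = 0.0421), and 0.16 (adjusted p = 0.263) with the length trend removed. Psme2 was at 3.00, 2.98, 2.98 and 3.79 CPM and at 3.79, 6.53, 4.74, 4.46, 5.53 and 4.90 CPM, with 5 labelled mutant mice above the highest labelled control mouse and F1 level with it. Its log2 fold change was 0.65 ± 0.20 (adjusted p = 0.0232), and 0.42 (adjusted p = 0.110) with the length trend removed. Without the labelled control M1 neither was called (adjusted p = 0.123 and 0.0587).

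Psme3, the nuclear PA28 gamma, was at 27.7, 29.6, 31.0 and 34.9 CPM and at 35.2, 36.4, 30.7, 33.1, 40.2 and 29.7 CPM. The groups overlapped widely, with a log2 fold change of 0.15 ± 0.11 (adjusted p = 0.292). The inhibitor Psmf1, PI31, was at 24.6, 22.3, 26.2 and 27.9 CPM and at 22.2, 24.1, 28.2, 22.3, 22.9 and 21.0 CPM, with a log2 fold change of -0.10 ± 0.10 (adjusted p = 0.483). The labelled mutant F3 held its highest value and M3 its lowest.

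Psme4 encodes PA200, a further activator. It was at 393, 367, 454 and 357 CPM in the labelled control mice, and at 705, 558, 567, 884, 402 and 366 CPM in the labelled mutant mice F1, F2, F3, M1, M2 and M3. Mice F1, F2, F3 and M1 lay above all labelled control mice, and M2 and M3 lay among them. The log2 fold change was 0.56 ± 0.21 and missed the threshold (adjusted p = 0.0545). With the length trend removed it was 0.72 and passed (adjusted p = 0.00925), the 1 gene that became called in this way, and without M3 it was 0.66 (adjusted p = 0.0183). Its transcript is long, 6491 bases. Over the 6 labelled mutant mice the order of Psme4 was exactly the reverse of that of the 20S core sum (Spearman -1). This description was chosen after the values were seen. In these 6 mice both orders also ran with the length trend of the mouse. Between the groups Psme4 did not run with it: the labelled control mice had the highest length correlations, 0.12 to 0.33, and 357 to 454 CPM. The cause of these orders was not tested.

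None of the 7 assembly factors was called by edgeR, DESeq2 or limma, and 0 had an unadjusted edgeR p under 0.05. They are the chaperones Psmg1 to Psmg4, which build the core, and Psmd5, Psmd9 and Psmd10, which build the base, and their log2 fold changes ran from 0.05 to 0.38 with a median of 0.13. Psmd10, gankyrin, had the smallest adjusted p. It was at 11.1, 12.7, 11.9 and 12.9 CPM in the labelled control mice and at 11.2, 12.4, 15.3, 13.2, 15.7 and 19.6 CPM in the labelled mutant mice, with M3 highest and F1 near the bottom of the range. On the log2 scale the difference was 0.25 ± 0.15 (adjusted p = 0.224). The core chaperones Psmg1 and Psmg2, which pair to start the alpha ring, each gave 0.08 (adjusted p = 0.663 and 0.612), and Psmg3 and Psmg4 gave 0.13 and 0.38 (adjusted p = 0.663 and 0.288) at under 10 CPM. Psmd5 and Psmd9 gave 0.05 and 0.18 (adjusted p = 0.717 and 0.320). Together the 7 genes were at 95.5 ± 7.23 CPM (SD, n = 4) and 104 ± 8.90 CPM (n = 6). As a percentage of the 20S core sum they were at 11.7% to 12.1% in the labelled control and 9.17% to 10.2% in the labelled mutant mice. This ratio was nearly constant within each group and did not overlap between them. It was formed from CPM that still carry the length trend, and its difference between the groups was not tested.

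By the exact permutation test on CPM (two-sided, not adjusted), the named genes whose groups did not overlap, Psma4, Psmb3, Psmb6, Psmb7, Psmb8, Psmb10, Psmc4, Psmd14 and Psme1, gave p = 0.00952, the smallest that 4 mice against 6 allow. Lack of overlap fixes this value, so it adds nothing to it. Of all genes tested, 11.7% had every labelled mutant mouse above every labelled control mouse. Psmb9 and Psme2 gave p = 0.019 in this permutation test, Psme4 p = 0.0762, Psmb5 p = 0.0857, Psmd10 p = 0.152, Psme3 p = 0.181 and Psmf1 p = 0.295.

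The remaining 3 genes stood outside the cardiac proteasome. Psma8, the alpha subunit of male germ cells, had 3 to 10 reads per library, and Psmb11, the beta subunit of thymic epithelium, had 1 read in labelled mutant F2 and 0 in the other libraries, where 0 allows up to 3 counts; neither was tested. Psmc3ip matches the form of the symbols but encodes a factor of meiotic recombination, and gave 0.16 (adjusted p = 0.579).

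Levels per kilobase of the principal transcript, in labelled control means, spread widely within the core although its subunits are built in equal numbers. They ran from 2.06 CPM per kilobase for Psma3 to 113 for Psmb6, with a median of 54.2 over the 14 genes. The lowest were Psma3, Psma5 at 8.67, Psmb5 at 14.2 and Psmb3 at 16.1. In these 4 genes 22.0%, 54.5%, 57.1% and 55.8% of all 50-base windows of the transcript also occur in the transcript of another gene, listed mostly under Gm numbers, and 11 of the 49 genes had more than 10% shared. Psme2, at 3.31 CPM per kilobase against 32.5 for its partner Psme1, shared 59.3%. With reads of about this length the counts of such genes depend on how reads with several places were handled, so the levels and fold changes of Psma3, Psma4, Psma5, Psmb3, Psmb5, Psmc1, Psmd2, Psmd11, Psme1, Psme2 and Psmg3 are uncertain. The share of Psmb8 in its pair, set against Psmb5, carries the same limit.

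**Figure D5:**
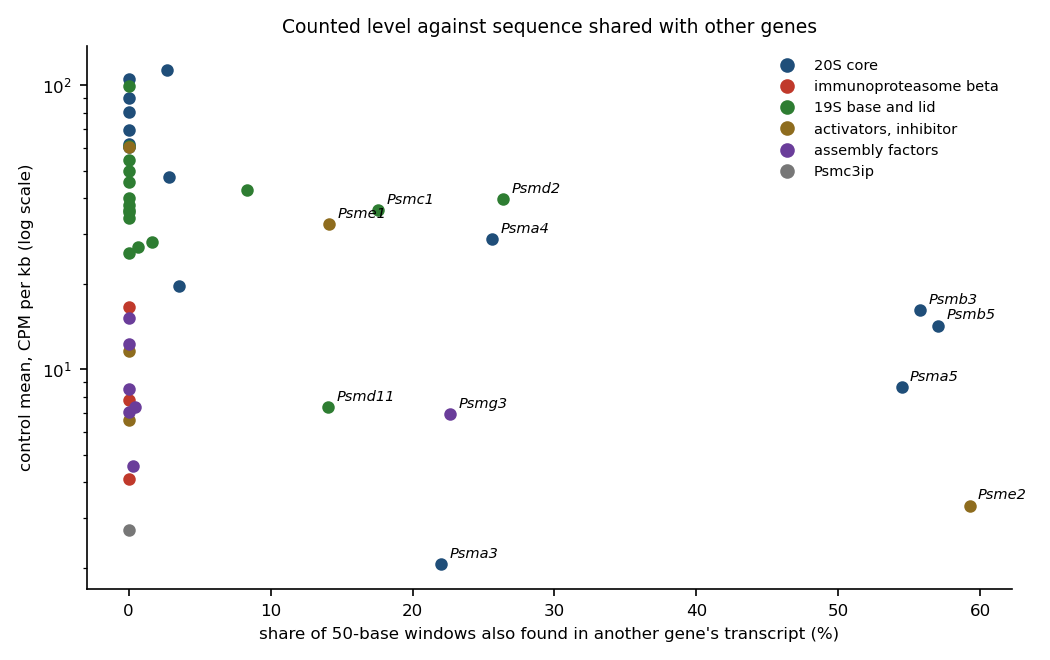
Labelled control mean in CPM per kilobase (log scale) against the share of 50-base windows that another gene's transcript also holds, for the 47 tested genes; colours give the group, and genes above 10% are named. The 4 genes above 50% lie between 3.31 and 16.1 CPM per kilobase.

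The other genes of the ubiquitin-proteasome pathway moved in both directions. Of 31 listed, 30 were found and 27 tested: 5 rose, 3 fell and 19 were not called, with a median log2 fold change of 0.06. Over all genes tested 16.3% were called higher and 15% lower, so these counts lay near the background. Those that rose were Pomp, the maturation protein that travels with the beta ring (0.33 ± 0.09, adjusted p = 0.0142), Shfm1, the smallest lid subunit (0.32, adjusted p = 0.0215), Txnl1, a thioredoxin bound to the 19S cap (0.35, adjusted p = 0.00686), Nfe2l2, the transcription factor of the antioxidant response (0.31, adjusted p = 0.0231), and Vcp, the p97 unfoldase (0.27, adjusted p = 0.018). Nfe2l1, the factor that raises subunit genes when the proteasome is inhibited, was at 365 to 428 CPM and 368 to 411 CPM, with a log2 fold change of 0.01 ± 0.09 (adjusted p = 0.964). Its activating protease Ddi2 fell by 0.32 (adjusted p = 0.0273) and the shuttle Ubqln2 by 0.76 (adjusted p = 0.0171). Only 24 of the 27 had a transcript length and entered the fit with the length trend removed, Shfm1 not among them. There 3 were called higher, Txnl1, Vcp and Uba1, the ubiquitin-activating enzyme (0.28, adjusted p = 0.0412), and 2 lower. In that fit 15.4% of all genes were called higher. Pomp (0.18, adjusted p = 0.0933), Nfe2l2 (0.26, adjusted p = 0.0504) and Ddi2 (-0.05, adjusted p = 0.744) were no longer called.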

How the data were processed

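RNA of the right atrium was sequenced in 10 libraries, 1 per mouse. The submitters' processing notes name FastQC, TopHat2 2.0.11, featureCounts, DESeq2 and mm10. The labels describe several library kits in the same text, and which was used for these libraries is not clear; whether counting used strand is not given in the sources used here. The authors deposited 1 table with whole-number counts per gene and library, not normalized, which were used here. The table also holds, as deposited, a signal per gene and library (counts divided by a DESeq2 size factor) and the authors' own comparison as a log2 fold change, a Wald score, a p-value and a fold ratio, and these columns were not used.

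Counts were tested with edgeR 4.0.16 in R 4.3.3 (expression filter, TMM, quasi-likelihood test, no covariates, prior count 0.125), with Benjamini-Hochberg adjustment over 13084 genes and a threshold of 0.05. Standard errors came from the F statistic, as the log2 fold change divided by its root. Transcript length and shared sequence came from GENCODE M21 (GRCm38), from the principal transcript of each gene. The length trend was removed by a lowess curve (span 0.4) of each library's deviations, entered as offsets; the use of the principal transcript was chosen after the data were seen. An exact permutation test on CPM (two-sided, 210 assignments of mice) accompanied the named genes; the smallest p it allows is 0.00952. Promoter windows came from RefSeq. The libraries held 5703775 to 7095141 counts; reads carry no molecular identifiers, so a floor of 3 counts covers counting error only. On simulated counts, edgeR recovered 158 of 200 genes changed by a fold of 2 among 12971, with 22 other calls. The other calls made up a larger share of all calls in this simulation than the threshold of 0.05 sets. Other settings were DESeq2 1.42.0, limma 3.58.1, other scalings, filters and thresholds, a block for the replicate number, sex, GC content and leaving out each mouse. The labels do not say whether mice share litters, so p-values measure the spread between these mice.

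The members and gene lists were chosen with earlier results of these data known. Values by mouse are given for the catalytic subunits and their inducible counterparts, the activators and the inhibitor, the 5 largest rises and falls among called genes, and the smallest adjusted p of the alpha ring, the ATPases, the lid and the assembly factors; no gene fell. The names of replicates do not pair mice: over 4 same-named pairs the correlation of deviations was -0.047 to 0.036. Some genes that enter the counts of the listed gene groups are not reported here by name.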

Additional observations from a re-analysis of the deposited data

Results flagged for a closer look

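In 6 of 94 gene and group combinations a mouse stood far from the others of its group, where chance gives about 4.7. Psma4 was at 37.3 CPM in labelled control F1, against 31.8 to 32.4 CPM in the other labelled control mice. In labelled control F2, Psmb6 was at 101 CPM (others 85.0 to 87.5), Psmd4 at 91.5 CPM (others 76.9 to 79.2) and Psme2 at 3.79 CPM, 28 reads (others 2.98 to 3.00). In labelled mutant M3, the library rich in Rn45s, Psma7 was at 153 CPM (others 106 to 119.6) and Psmg4 at 8.44 CPM, 31 reads (others 3.94 to 5.20). Psma7 was not called without M3 (0.23, adjusted p = 0.0762).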

How the results depend on the processing

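The count of 27 genes called higher was between 20 and 29 under DESeq2 (28), limma (21), other scalings, filters, covariates, GC content and a replicate block (20, at which Psmb9 had an adjusted p of 0.056), and 0 genes were called lower under every alternative run, DESeq2 and limma included (0 were lower at an unadjusted edgeR p under 0.05). It was 13 at an adjusted p under 0.01, 8 with a fold over 1.5, 14 with the trend on the longest transcript removed and 11 when this was joined to a replicate block. With the trend on the principal transcript removed it was 16, and 11 when M3 was also left out. Leaving out each mouse gave 18 to 28. The lowest, 18, was without labelled control M1, when Psma7, Psmb2, Psmc2, Psmc3, Psmd2, Psmd4, Psmd8, Psme1 and Psme2 were no longer called. Psmb5 was called without labelled mutant M1. Psme4 was called under 11 of 27 alternatives, among them DESeq2 (adjusted p = 0.0284), the replicate block (0.64, adjusted p = 0.018), GC content, every removal of the length trend and leaving out M2 or M3. Psmc6 was called under 3, GC content (0.35, adjusted p = 0.00435), upper-quartile scaling and without labelled mutant F2. Psma5, Psmb3, Psmb7, Psmb8, Psmb10 and Psmd14 were called under all 27 alternatives.

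The median log2 fold change of the 20S core was 0.18 (longest transcript), 0.19 (with a replicate block), 0.20 (principal transcript) and 0.20 (the same without M3), that of the 19S cap 0.14 and 0.15 in the first pair of settings, and that of the activators and inhibitor 0.18 with the block, 0.16 with the principal transcript and 0.15 without M3 besides. The median of the assembly factors, 0.13, was 0.069 without labelled control M1 and 0.23 without labelled control F2, and turned to -0.015 with the block and length and to -0.015 with the principal transcript without M3.

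Signs turned only for genes that were not called. Psmd11 was 0.0012 with limma, 0.026 with upper-quartile scaling, 0.086 with GC content removed and -0.047 to 0.063 with a mouse left out. Psma3 was 0.093 with a replicate block, 0.040 with block and length, 0.045 with GC content removed and -0.13 to 0.048 with a mouse left out. With the longest-transcript trend removed, Psmd7 was -0.10, Psmg1 -0.15, Psmg2 -0.12 and Psmc3ip -0.041. Joined to the block, Psmb5 was -0.0035, Psmd7 -0.12, Psmg1 -0.11, Psmg2 -0.11, Psmg4 -0.015 and Psmd10 -0.059. With the principal-transcript trend removed, Psmd3 was -0.025, Psmd7 -0.076, Psmg1 -0.13, Psmg2 -0.14, Psmg3 -0.10 and Psmc3ip -0.019, and without M3 in addition Psmd7 was -0.045, Psmg1 -0.12, Psmg2 -0.11, Psmg3 -0.083, Psmg4 -0.015 and Psmc3ip -0.0071. The cause of these changes was not tested. Replicate names do not pair the mice. Psme2, Psmg4 and Psmc3ip rest on few reads, which limits their precision.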
